A study of Homo sapiens with 3 samples.

Results

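The androgen receptor is a nuclear receptor that, once bound by androgen, enters the nucleus and switches on genes that give prostate cells their secretory character, such as kallikrein proteases and prostatic acid phosphatase. It opens chromatin together with pioneer and lineage factors such as FOXA1, GATA2 and HOXB13, and its own activity depends on chaperones of the HSP90 family and on coactivators. 33 genes were followed here: these factors and well-known androgen-regulated prostate genes, taken by name from the array's annotation out of 43317 gene names. Of the 33 genes, 32 had a probe, 24 were measured above background and tested among 17061 genes, and 8 had no probe well above background. The remaining gene had no probe under its listed name. ACPP, PPAP2A and NOV are older array names of ACP3, PLPP1 and CCN3.

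The samples came from 22RV1, a human prostate cancer cell line that makes the secreted protease inhibitor SPINK1 and responds to androgen. Stable 22RV1-shSPINK1 lines carried 1 of 3 lentiviral hairpins against SPINK1 (shSPINK1-1, shSPINK1-2 and shSPINK1-3), and the control, 22RV1-shSCRM, carried a scrambled hairpin. All lines were kept in serum-containing RPMI-1640 under puromycin selection, and the labels name no androgen treatment. RNA of each shSPINK1 line was labelled with Cy5 and set against Cy3-labelled shSCRM RNA on 1 two-color Agilent array, which gave 3 arrays and 1 ratio per hairpin. Every ratio below is the log2 of shSPINK1 over shSCRM after loess normalization, so a negative value means less RNA in the silenced cells. The p-values test the mean ratio against 0 by limma over all genes. The sources do not say whether the shSCRM RNA came from separate cultures, and if 1 RNA served all arrays the p-values leave out the spread of the control. The dyes ran the same way on all 3 arrays, so for any gene dye bias and silencing cannot be told apart.

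The silenced gene followed its label on every array: SPINK1 had log2 ratios of -3.71, -3.65 and -3.89 with hairpins 1, 2 and 3, a mean of -3.75 ± 0.12 (SD, n = 3 arrays, adjusted p = 6.07e-07 by limma). Each array held 60901 gene spots, of which 41.3% to 46.8% were well above background in Cy5 and 38.8% to 42.6% in Cy3, and none was saturated. The cells carried the markers of luminal prostate epithelium, since 5 of 5 luminal markers (KRT8, KRT18, KRT19, EPCAM and CDH1) were measured, with a summed Cy5 brightness of 22700 to 27000 units. The basal markers KRT5, KRT14 and TP63 were not well above background (0 of 3). Of the listed stromal, endothelial and immune markers, 3 of 4, 2 of 3 and 1 of 3 were measured, and the immune marker CD68 had no probe. In each of these classes the brightest probes of the listed genes, measured or not, summed to at most 213 units in Cy5. Among the luminal markers themselves KRT8 (-0.34, adjusted p = 0.0112 by limma), EPCAM (-0.23, 0.0277) and CDH1 (-0.28, 0.032) fell and KRT18 rose (0.35, 0.0185), and their part in the results below was not tested.

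The 24 members measured include pioneer and lineage factors and the androgen-repressed NOV besides androgen-induced genes. Of these members, 4 passed the test by adjusted p when SPINK1 was silenced. TMPRSS2, PPAP2A and FKBP5 fell by 18.9% to 25.4%, ELL2 rose, and the kallikreins KLK2, KLK3 and KLK4 did not pass the test. Genes were called on both criteria when the adjusted p was below 0.05 and the mean lay past 0.5 on the log2 scale. No member met both, and of all genes tested only 0.393% did so as lower and 0.322% as higher. Beside shares this small, the lack of a call among 24 genes does not set the members apart. By adjusted p alone, 3 of 24 members were lower (12.5%, against 8.7% of all genes tested) and 1 was higher (4.17%, against 4.77%). At an unadjusted p under 0.05, 7 members were lower (29.2%, against 18.4% of all genes) and 2 higher (8.33%, against 11.3%). With a size beyond 0.5 as well, 1 of 24 members was left as lower (SLC45A3) and none as higher. Of 17061 genes tested, 71 were lower and 60 higher by the same limits. The median of the 24 mean ratios was -0.032, against -0.011 for all genes tested, and the medians with hairpins 1, 2 and 3 were -0.080, -0.044 and -0.024, against -0.021, -0.012 and -0.011. Counted by sign, 9 members were below 0 on all 3 arrays (37.5%, against 29% of all genes) and 4 were above 0 on all 3 (16.7%, against 21.2%). In RNA from a whole culture, fewer cells of a kind and less RNA per cell cannot be told apart.

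**Figure D1:**
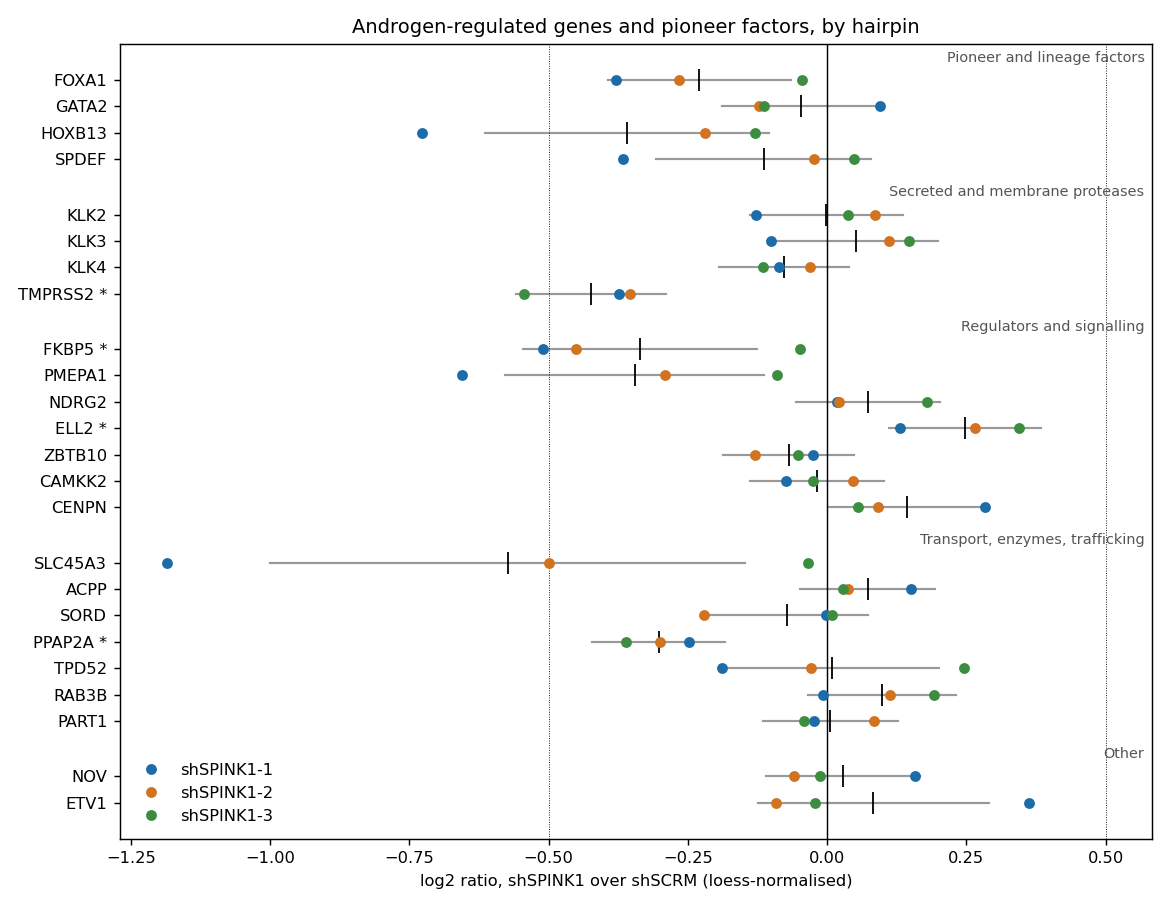
Log2 ratio of shSPINK1 over shSCRM (horizontal axis) for the 24 measured genes, grouped by role, with 1 point per hairpin, a tick at the mean and a line for limma's 95% confidence interval, and dotted lines at -0.5 and 0.5. The 4 genes with a star (TMPRSS2, FKBP5, PPAP2A and ELL2) had an adjusted p under 0.05, no mean of those 4 passed the dotted lines, and SLC45A3 has the widest line, with its 3 points from -1.19 to -0.03.

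The array measured these genes through 60-base probes, and the sequences of a pair of probes are shown because each marks a result that turns on a single stretch of a transcript. The PPAP2A probe carries one of the 3 falls; in hg19, as the array's annotation gives it, it lies on the minus strand at chr5:54721155-54721742, a span of 588 bases for a probe of 60. The CENPN probe is the brightest of 3 for that gene, on the plus strand at chr16:81053871-81056408, a span of 2538 bases, and its ratio differed in sign from that of the next probe. Both sequences run 5′ to 3′ and no base is singled out by capitals.
PPAP2A: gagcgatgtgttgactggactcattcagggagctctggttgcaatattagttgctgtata
CENPN: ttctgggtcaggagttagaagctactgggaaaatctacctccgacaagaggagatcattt

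Among the pioneer and lineage factors, none of the 4 measured genes passed the adjusted test. FOXA1, the forkhead factor that opens chromatin for the receptor, had ratios of -0.38, -0.27 and -0.05 with hairpins 1, 2 and 3 and a mean of -0.23 ± 0.17 (SD, n = 3 arrays, adjusted p = 0.0731 by limma, 95% confidence interval -0.39 to -0.06). Its main probe was printed as 10 spots on each array, and the spots of 1 array scattered with an SD of 0.05, which covers the technical error within an array only. The second FOXA1 probe had -0.17, -0.06 and 0.04 (mean -0.07, adjusted p = 0.486 over probes by limma). It was dim, at 23.6 to 25.4 Cy5 units over a local background of 15, with Cy5 well above background on 2 of 3 arrays. With both probes averaged the mean of FOXA1 was -0.15 (adjusted p = 0.165 by limma), a value that gives the dim probe equal weight. HOXB13, the homeobox factor of the prostate lineage, had -0.73, -0.22 and -0.13, a mean of -0.36 ± 0.32 (adjusted p = 0.0712 by limma). The brighter FOXA1 probe and the HOXB13 probe were below 0 on all 3 arrays and lowest with hairpin 1. Without hairpin 1 the mean of HOXB13 was -0.17 (adjusted p = 0.0767 by limma). GATA2, a zinc finger pioneer factor, had 0.10, -0.12 and -0.11 and a mean of -0.05 (adjusted p = 0.659 by limma). SPDEF, an ETS factor of luminal cells, had -0.37, -0.02 and 0.05, a mean of -0.11 (adjusted p = 0.404 by limma), and only hairpin 1 lay well away from 0.

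The secreted kallikreins, which are the classical readout of the receptor, had small ratios. KLK3, which encodes prostate-specific antigen, had -0.10, 0.11 and 0.15, a mean of 0.05 ± 0.13 (SD, n = 3 arrays, adjusted p = 0.624 by limma). The 95% confidence interval of its mean ran from -0.09 to 0.20, that is, from -6.32% to 14.8%. The dimmer KLK3 probe, whose Cy3 signal was well above background on 1 array only, had 0.06, -0.02 and 0.11. KLK2, the kallikrein that activates the KLK3 protease, had -0.13, 0.09 and 0.04 around a mean of 0.00 (95% interval -0.14 to 0.14), and its other probe was not well above background. KLK4, another protease of the cluster, had -0.09, -0.03 and -0.11 and a mean of -0.08 (adjusted p = 0.347 by limma), with all 3 hairpins on the same side.

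TMPRSS2, the androgen-induced membrane serine protease, fell with every hairpin. Its ratios were -0.37, -0.35 and -0.54, with a mean of -0.42 ± 0.10 (SD, n = 3 arrays), and the unnormalized brightness of its probe was 187, 165 and 132 units in Cy5 against 348, 327 and 317 in Cy3. By limma the adjusted p was 0.00811, and TMPRSS2 fell by 25.4% (95% interval -32.1% to -18.2%). Hairpin 3 gave the lowest value, and the others lay close together. Leaving out any 1 array kept the adjusted p under 0.05, with means from -0.46 to -0.36. It passed in 10 of 13 ways of processing and not with Feature Extraction's own ratios (-0.49, adjusted p = 0.112 by limma), the deposited value table (-0.49, 0.121) or normexp without the offset (-0.48, 0.065). In each of these last settings only 0.0176% of all genes passed as lower by adjusted p. The 13 ways are not separate checks. Changes to the filter or the probe rule left the mean at -0.42, because TMPRSS2 has 1 probe. With median centring 60.6% of all genes passed as lower.

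Among androgen-induced regulators, FKBP5, a co-chaperone of HSP90 and one of the most direct receptor targets, had ratios of -0.51, -0.45 and -0.05 with hairpins 1, 2 and 3. It fell on average, with a mean of -0.34 ± 0.25 (SD, n = 3 arrays), and its adjusted p of 0.0499 by limma was just under the threshold. Hairpins 1 and 2 carried the fall, and hairpin 3 was near 0. Without hairpin 1 the mean was -0.25 (adjusted p = 0.072 by limma) and without hairpin 2 it was -0.28 (0.139), so the call rests on both. It was made in 5 of 13 ways of processing, which are not separate checks.

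PMEPA1, a membrane adapter that restrains growth factor signaling and is induced by androgen, was read by 2 probes that differed in how evenly the hairpins acted. The brighter probe had -0.66, -0.29 and -0.09, a mean of -0.35 (adjusted p = 0.0604 by limma). The dimmer probe had -0.58, -0.61 and -0.41, a mean of -0.54 ± 0.11 (SD, n = 3 arrays). When each of the 21442 kept probes was tested on its own, the dimmer probe passed both criteria (adjusted p = 0.00526 by limma), as did 0.345% of all kept probes on the lower side. With both probes averaged PMEPA1 had a mean of -0.44 (adjusted p = 0.0163 by limma). Both probes lie on the minus strand in hg19, at chr20:56223489-56223548 for the brighter and chr20:56227094-56227153 for the dimmer.

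ELL2, an elongation factor of RNA polymerase II, was the only member that rose by the adjusted test. Its ratios were 0.13, 0.27 and 0.35, with a mean of 0.25 ± 0.11 (SD, n = 3 arrays, adjusted p = 0.0346 by limma), that is, 18.7% more RNA (95% interval 8.04% to 30.5%). Its probe lay at the 96.4th percentile of brightness, and the 853 brightest genes tested (the top 5%) had a median ratio of 0.13 on these arrays, where 30.2% rose by adjusted p. The part of brightness in the ELL2 ratio was not tested. Without hairpin 2 its mean was 0.24 (adjusted p = 0.105 by limma), without hairpin 3 it was 0.20 (0.19), and with median centring in place of loess it was -0.08 (0.214). HOXB13 was the other member in that bright range (97.5th percentile), and its mean ratio lay on the opposite side of 0.

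**Figure D2:**
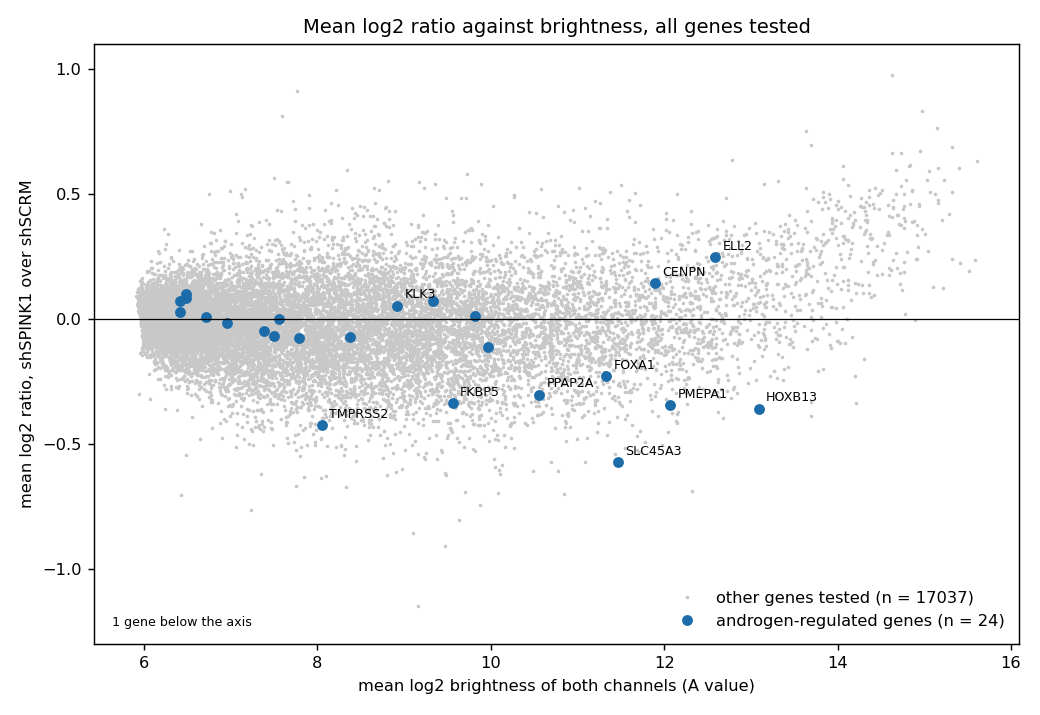
Mean log2 ratio of shSPINK1 over shSCRM (vertical axis) against mean log2 brightness of both channels (horizontal axis) for 17061 genes. The 24 measured members are in blue, and SPINK1 lies below the axis. Genes at the bright end drift above 0, where ELL2 lies with the trend and HOXB13 below it.

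The remaining regulators did not pass the adjusted test. NDRG2, a differentiation-linked gene of the NDRG family, had 0.02, 0.02 and 0.18 by its brighter probe (mean 0.07, adjusted p = 0.424 by limma), and -0.25, -0.32 and -0.02 by the dimmer one (mean -0.20, adjusted p = 0.0928 over probes by limma), so the sign depends on the probe. CENPN, a centromere protein, had 0.28, 0.09 and 0.06 by the probe printed above (mean 0.14, adjusted p = 0.163 by limma). The second CENPN probe, annotated to another transcript of the gene, was lower on all 3 arrays, with -0.13, -0.42 and -0.24 (mean -0.26, adjusted p = 0.0392 over probes by limma, a threshold that 8.27% of kept probes passed as lower), and the dimmest had a mean of 0.01. CENPN is therefore uncertain as a gene, with 1 probe on each side of 0 on every array. ZBTB10, a zinc finger repressor, had -0.03, -0.13 and -0.05, and CAMKK2, a calcium-dependent kinase upstream of AMPK, had -0.07, 0.05 and -0.03.

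**Figure D3:**
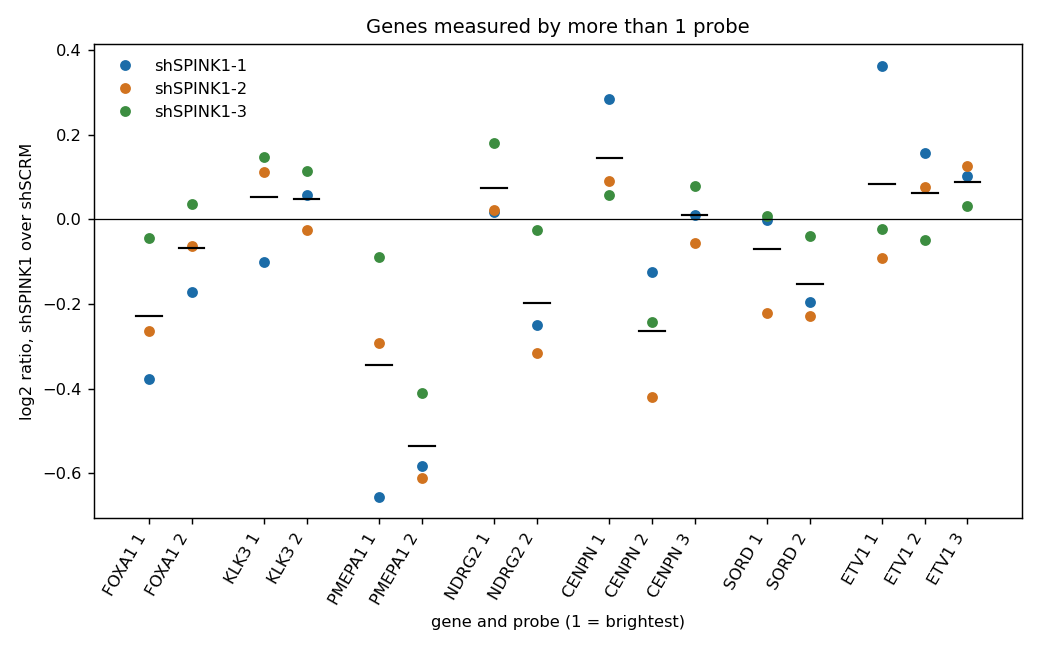
Log2 ratio of shSPINK1 over shSCRM (vertical axis) with each hairpin (points) and its mean (bars) for the 7 genes with more than 1 kept probe, numbered from the brightest. The PMEPA1 probes lie below 0 with every hairpin, whereas the means of the NDRG2 probes and of the first 2 CENPN probes lie on opposite sides of 0.

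Of the genes for transport, enzymes and secretion, SLC45A3, which encodes the prostate transporter prostein, had the lowest mean of all 24 members and the widest spread. Its ratios were -1.19, -0.50 and -0.03 with hairpins 1, 2 and 3, with a mean of -0.57 ± 0.58 (SD, n = 3 arrays), and it did not pass (adjusted p = 0.0803 by limma). The Cy5 brightness of its probe was 1480, 1860 and 2650 units, while Cy3 was 4370, 3740 and 3990. SLC45A3 was thus far below the control with hairpin 1 and close to it with hairpin 3. Without hairpin 3 its mean was -0.84 and passed (adjusted p = 0.0452 by limma), and without hairpin 1 it was -0.27 (0.0751). A log2 ratio below -0.5 was reached by 4 members with hairpin 1 (SLC45A3, HOXB13, PMEPA1 and FKBP5), by none with hairpin 2 and by 1 (TMPRSS2) with hairpin 3, against 1.04%, 0.955% and 0.703% of all genes. Each hairpin was measured on 1 array, so the differences between hairpins were not tested.

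PPAP2A, a lipid phosphate phosphatase, fell with every hairpin and with little spread. Its ratios were -0.25, -0.30 and -0.36, with a mean of -0.30 ± 0.06 (SD, n = 3 arrays), and it fell by 18.9% (95% interval -25.3% to -11.9%, adjusted p = 0.0141 by limma). All 3 hairpins lay on the same side of 0 and close together. It passed in 9 of 13 ways of processing, which are not separate checks. Without hairpin 3 its mean was -0.27 (adjusted p = 0.0901 by limma).

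The other secretory and metabolic members stayed within 0.1 of 0 on average. ACPP, the prostatic acid phosphatase, had 0.15, 0.04 and 0.03, all above 0 (mean 0.07, adjusted p = 0.397 by limma). SORD, sorbitol dehydrogenase, had 0.00, -0.22 and 0.01, and its second probe, with a mean of -0.15, was below 0 on all 3 arrays. TPD52, a vesicle trafficking protein, ran from -0.19 with hairpin 1 to 0.25 with hairpin 3 around a mean of 0.01. RAB3B, a small GTPase of exocytosis, had -0.01, 0.11 and 0.19 (mean 0.10, adjusted p = 0.29 by limma), and the long noncoding RNA PART1 had -0.02, 0.08 and -0.04. NOV, a secreted matricellular protein that the paper lists among androgen-repressed genes, had 0.16, -0.06 and -0.01. ETV1, an ETS factor, had 0.36, -0.09 and -0.02 by its brightest probe, a mean of 0.08 (adjusted p = 0.576 by limma), and its other 2 kept probes had means of 0.06 and 0.09. All of these probes of ACPP, RAB3B, NOV and ETV1 were dim, with at most 74.1 Cy5 units over a local background of 15. With Feature Extraction's ratios, which carry no offset, the mean of RAB3B was 0.30. With normexp without the offset the means were 0.25 for RAB3B, 0.18 for ACPP, 0.15 for ETV1 and 0.063 for NOV. None of these passed by adjusted p.

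The 8 members without a kept probe were TRPM8, STEAP4, HERC3, ABCC4, MAF, ACSM1, ALDH1A3 and ERG. They include the cold-sensing channel TRPM8, the metalloreductase STEAP4, the efflux pump ABCC4, the retinaldehyde dehydrogenase ALDH1A3 and the ETS factor ERG. Their probes read 14.2 to 25 units in Cy5, where the local background was 15, and 25.3 to 40.1 units in Cy3, where it was 19 to 20. MAF came nearest, with Cy5 well above background on 2 of 3 arrays. For these genes no ratio is given, and the arrays do not show whether they differed between the cells.

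**Figure D4:**
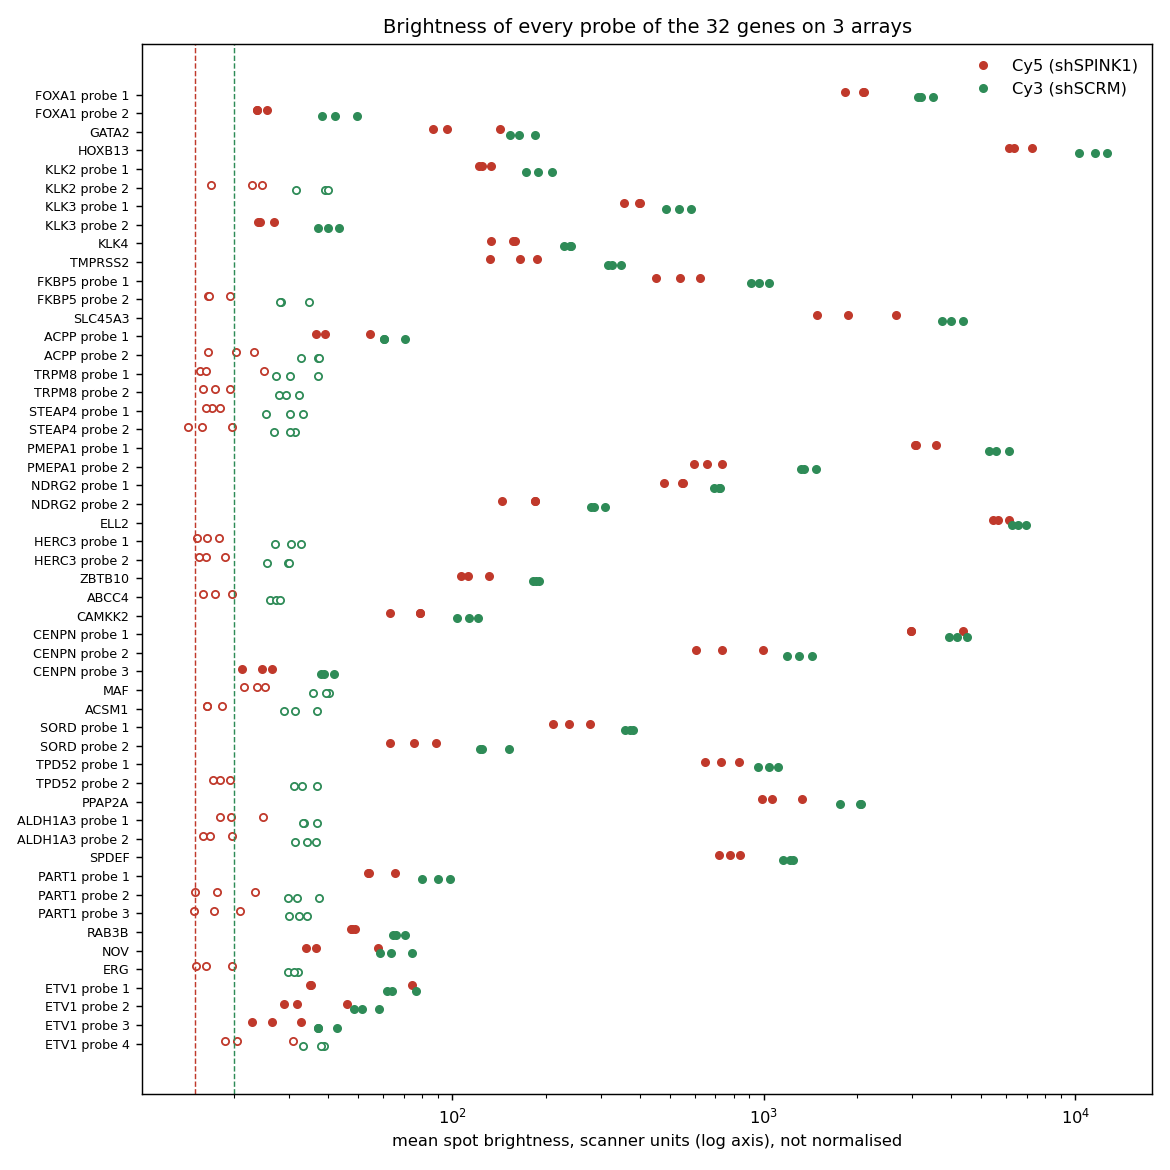
Unnormalized brightness (horizontal log axis, scanner units) of the 52 probes of 32 genes in Cy5 (shSPINK1, red) and Cy3 (shSCRM, green) on 3 arrays, with the median local background of each channel as a dashed line. Filled points are the 33 kept probes, and the open points of genes such as TRPM8, STEAP4 and ERG lie close to the dashed lines.

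Further lists place these genes in the wider androgen pathway, and each is described by its counts beside the shares of all genes tested. Of 56 other androgen-activated genes, 48 were tested, 9 fell (18.8%, against 8.7% of all genes) and 1 rose (2.08%, against 4.77%) by adjusted p, with a median of -0.085. Of these, 1 passed the size limit as well: IDI1, an isomerase of sterol synthesis with ratios of -0.77, -0.50 and -0.44 and a mean of -0.57 (adjusted p = 0.00714 by limma). Without hairpin 1 the mean of IDI1 was -0.47 (adjusted p = 0.000893 by limma), short of the size limit. Among the others that fell were ELOVL5, HPGD, KRT8 (also a luminal marker), MAP7, NCAPD3, STK39 and UAP1, and TSC22D1 rose (mean 0.43, adjusted p = 0.0295 by limma), but its adjusted p was 0.0768 without hairpin 2 and 0.128 without hairpin 3. Leaving out hairpin 1, 2 or 3 gave 12, 7 and 6 falls, against 11.4%, 3.63% and 1.7% of all genes. No gene of the list passed with Feature Extraction's ratios, the deposited table or normexp without the offset. In those settings only 0.0176% of all genes passed as lower and at most 0.00586% as higher.

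The other 3 lists held 4 genes in all that passed by adjusted p. None of these passed with Feature Extraction's ratios, the deposited table or normexp without the offset, where only 0.0176% of all genes passed as lower. Of 9 listed names of androgen-repressed genes other than the member NOV, 5 were tested. None passed by limma (1 higher and 0 lower at an unadjusted p under 0.05), and their median was 0.019. Of 23 genes of androgen synthesis and metabolism, 9 were tested, 1 fell (11.1%, against 8.7% of all genes) and none rose by limma (0 higher at an unadjusted p under 0.05), with a median of -0.091. AKR1C3, which makes testosterone from its precursor, fell on all 3 arrays with -0.37, -0.24 and -0.28 (mean -0.29, adjusted p = 0.0161 by limma), and without hairpin 3 its adjusted p was 0.0801. Of 24 tested receptor chaperones and coactivators, 1 fell (4.17%, against 8.7% of all genes) and 2 rose (8.33%, against 4.77%) by adjusted p, with a median of 0.010. The chaperone HSP90AA1 rose past the size limit with 0.45, 0.95 and 0.69 (mean 0.69, adjusted p = 0.00759 by limma), but its other probes had means of 0.49 and 0.03, and its main probe lay at the 98.6th percentile of brightness. PTGES3, the p23 co-chaperone of HSP90, fell with -0.36, -0.51 and -0.55, and SMARCA4, the motor of the SWI/SNF remodeler, rose by 0.21 on average (adjusted p = 0.0418 by limma). The SMARCA4 call was lost without hairpin 2 (0.159) and without hairpin 3 (0.208), and its mean was -0.13 with median centring.

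The way the arrays were scaled set the level of all ratios. With median centring in place of loess the median of all genes moved from -0.011 to -0.23 and that of the members from -0.032 to -0.33, and 7 members then passed both criteria as lower, against 11.5% of all genes, and 18 of 24 were lower by adjusted p alone, against 60.6%. Without hairpin 3, 1 of 24 members passed both criteria as lower, against 79 of 17061 genes. Testing every kept probe also gave 1, against 0.345% of kept probes.

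**Figure D5:**
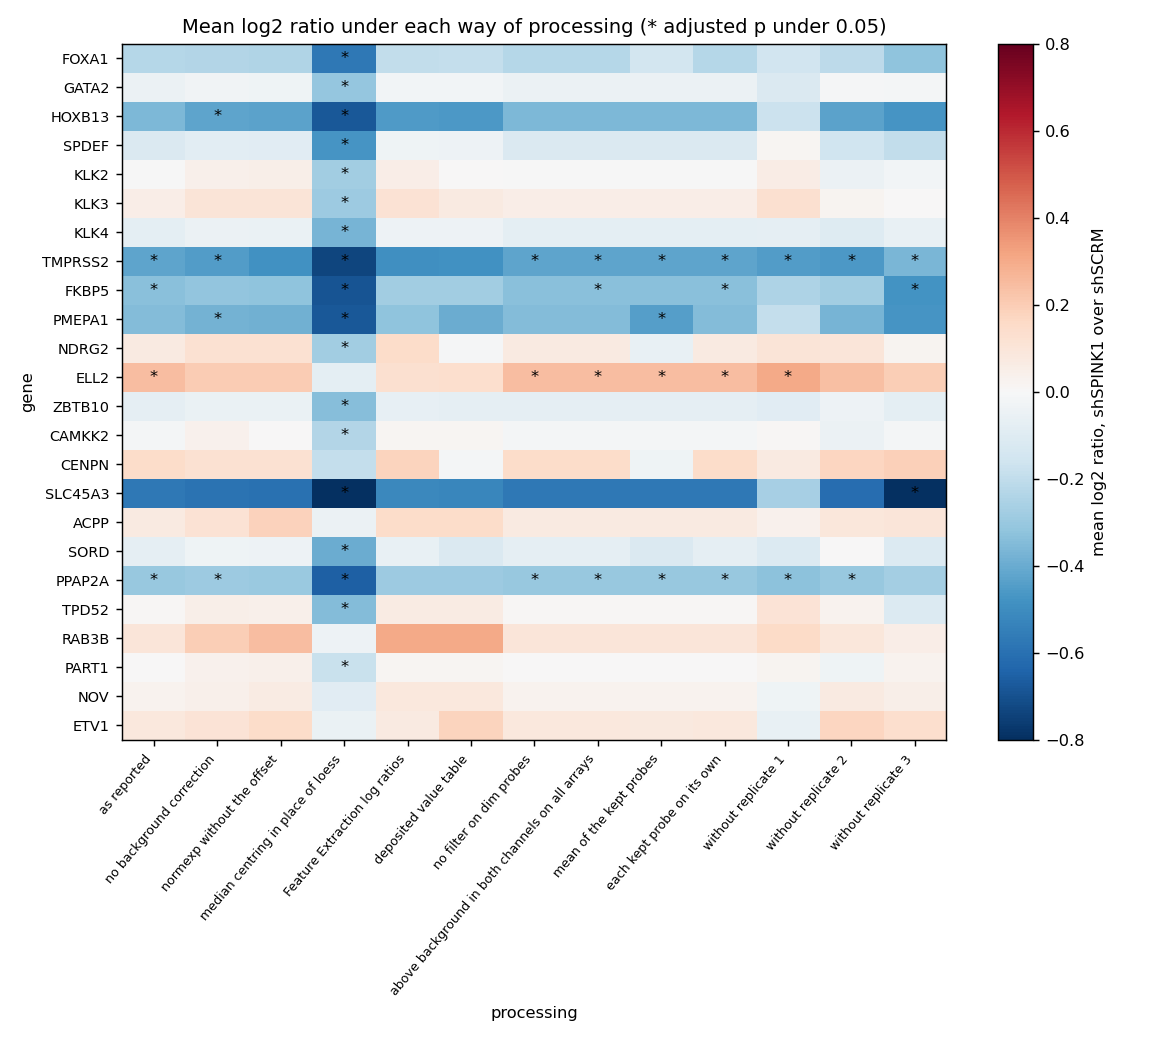
Mean log2 ratio of shSPINK1 over shSCRM (color, which saturates at -0.8 and 0.8) for the 24 genes (rows) under 13 ways of processing (columns), with a star where the adjusted p was under 0.05. TMPRSS2, FKBP5, PPAP2A, SLC45A3, PMEPA1, HOXB13 and FOXA1 are blue in every column, and the column for median centring lies towards blue. GATA2, KLK4 and ZBTB10 also have a mean below 0 in every column.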

How the data were processed

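Gene expression of 22RV1-shSPINK1 cells against 22RV1-shSCRM cells was measured on 3 two-color arrays, grouped by the labels as 1 group with 1 array per hairpin. The authors deposited scanner files of Agilent Feature Extraction (version 11.5.1.1 per the file headers), which hold the intensity and local background of every spot in each channel, not normalized, with flags and a log10 ratio that the software had corrected for background and dye. They also deposited a table of 1 log2 value per gene and array, whose scale and direction were settled by comparison: 100% of its values for 32341 genes with a single probe differed by less than 0.02 from the log2 of processed Cy5 over processed Cy3 signal, with medians of -0.12, -0.17 and -0.2 on the arrays of hairpins 1, 2 and 3, and how several probes were combined is not given in the sources used here. Feature Extraction set 23.1% to 37.4% of gene spot ratios to exactly 0. The labels describe poly(A) tailing of total RNA before labelling.

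The scanner intensities were taken into limma (3.58.1, R 4.3.3): normexp with an offset of 50, loess within each array with control spots at weight 0, removal of spots with outlier flags, and the mean over spots of a probe. Of 58201 probes, 21442 were kept because 1 channel was well above background on every array, and the brightest kept probe stood for its gene. Mean ratios were tested against 0 with limma's moderated test and Benjamini-Hochberg adjustment over 17061 genes, with calls at 0.05 for the adjusted p and 0.5 for the size of the mean log2 ratio. In simulated data for this comparison, 100% of 200 genes shifted by a log2 ratio of 1 were recovered among 17061. The member means were smaller, from -0.57 to 0.25, and recovery of shifts of that size was not tested. The number of arrays limits the precision. All members with a probe and SPINK1 are named, of the other lists the genes past both criteria, and a few that passed the adjusted p alone were named after their values were seen. Members and lists were chosen with earlier results of these data known. Alternatives covered the background correction, the scaling, the source of values, the filter, the probe rule, the size limit and leaving out each array. RefSeq names of GRCh38.p14 were used for symbols only, and coordinates are those of the array (hg19). Some genes are not reported here.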

Additional observations from a re-analysis of the deposited data

How the results depend on the processing

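SPINK1 passed in every one of 13 ways of processing, with means from -4.09 to -3.68 (-3.80 to -3.68 with 1 array left out). The count of members past both criteria as lower was 0 of 24, against 0.393% of all genes. It was 7 with median centring in place of loess, against 11.5% of all genes. With every kept probe tested on its own it was 1 (PMEPA1), against 0.345% of kept probes. With 1 array left out it was 0 to 1 (SLC45A3 without replicate 3, against 79 of 17061 genes). With no limit on size it was 3, against 8.7% of all genes, and it was 0 in the other settings. The count as higher was 0, against 0.322% of all genes, apart from 1 with no limit on size, against 4.77%. The members' median of -0.032 was 0.003 without background correction, -0.33 with median centring and -0.046 to -0.036 with 1 array left out. No paired analysis was possible because there is a single group of arrays, and the pairing of silenced with control RNA is within each array.

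Signs turned as follows, and the cause was not tested apart from median centring, which lowered the median of all genes. With median centring the means were KLK3 -0.29, ACPP -0.050, NDRG2 -0.28, ELL2 -0.080, CENPN -0.19, TPD52 -0.35, PART1 -0.18, RAB3B -0.040, NOV -0.092 and ETV1 -0.051. KLK2 was 0.041 without background correction, 0.044 with normexp without the offset, 0.054 with Feature Extraction ratios and 0.0033 in the deposited table, and CAMKK2 was 0.033, 0.0039, 0.013 and 0.017 there. In the deposited table NDRG2 was -0.0067 and CENPN -0.013, and with kept probes averaged they were -0.062 and -0.036. With 1 array left out, the means ran from -0.045 to 0.061 for KLK2, from -0.050 to 0.010 for CAMKK2, from -0.20 to 0.013 for SPDEF, from -0.035 to 0.073 for NOV, from -0.056 to 0.17 for ETV1, from -0.11 to 0.0036 for SORD, from -0.032 to 0.030 for PART1 and from -0.11 to 0.11 for TPD52. FKBP5 passed by adjusted p in 5 of 13 settings, ELL2 in 6, PPAP2A in 9 and TMPRSS2 in 10. The settings are not separate checks. Each of these genes has 1 kept probe, so changes to the filter or the probe rule kept its ratio. With Feature Extraction ratios or the deposited table, 3 of all genes passed, and with normexp without the offset 3 passed as lower and 1 as higher. Signal over background limits ACPP, RAB3B, NOV and ETV1 most, and 8 members could not be measured.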
